A study of Mus musculus with 4 samples.

Results

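The baseline transcriptome of wild-type mouse erythroleukemia (MEL) cells was described from 2 RNA-seq libraries of the DS19 line. A gene was counted as expressed when its value was at least 1 FPKM (fragments per kilobase of transcript, scaled to the number of mapped fragments) in both libraries. By this rule 10281 of the 17393 genes in the table were expressed (59.1%). The expressed genes were ranked by the mean FPKM of both libraries, and paired values below are always library 1 and then library 2.

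The series holds 4 samples of DS19 cells, of which the 2 wild-type ones are described here; the other samples, from Wdr26-/- cells of the same line, were not used. RNA was extracted with Trizol, ribosomal RNA was removed with a Ribo-Zero kit, and libraries were sequenced on an Illumina HiSeq instrument. The labels' growth protocol names 1.5% dimethyl sulfoxide, an agent that drives MEL cells toward red cell-like differentiation. It does not state whether the wild-type cells that were sequenced had received it, so the profile is that of wild-type cells at an unstated point of induction. The labels do not tell whether the pair of libraries came from separate cultures, so the spread between them may be technical.

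MEL cells are erythroid precursors transformed by the Friend virus complex and blocked near the proerythroblast stage. In such leukemias viral insertion commonly activates Spi1, which encodes the transcription factor PU.1, and PU.1 in turn opposes Gata1, the factor that drives red cell maturation. Erythroid differentiation is marked by globin and heme synthesis, iron uptake through the transferrin receptor, and assembly of the red cell membrane and its skeleton.

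All 5 genes chosen as markers of the line were expressed. Hba-a1 encodes the alpha chain of adult hemoglobin (chr11:32283672-32284486 in the RefSeq annotation of GRCm38.p6) and ranked first, at 135652 and 168691 FPKM. Hbb-b1, an adult beta globin gene, ranked second, at 25842 and 31940.0 FPKM. Alas2 encodes the erythroid form of the first enzyme of heme synthesis (chrX:150547417-150570622) and ranked 9, at 3721 and 4123 FPKM. These markers of hemoglobin production were all higher in library 2 than in library 1. Gata1 (chrX:7959260-7976663) ranked 134 of 10281, at 462 and 489 FPKM. Spi1 (chr2:91082374-91115759) ranked 1438, at 43.3 and 53.4 FPKM. Transcripts of Gata1 and of Spi1 were thus present together in these cultures, as levels of whole-culture RNA that do not show whether the same cells held both. In such RNA, fewer cells with a transcript and less of it per cell cannot be told apart.

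The step that 1 fragment makes in the lowest values corresponded to about 21100000 fragments in library 1 and 21300000 in library 2, or between 19600000 and 25900000 over the assumed losses of effective length. These depths are approximate, and no counting interval was computed from them. Summed over all genes the values were 621897 and 671964 FPKM. Library 1 alone had 10568 genes at 1 FPKM or more and library 2 had 10416. Genes that reached the threshold in only 1 of them numbered 422, and 1939 genes were listed at 0 in both. Just above the threshold stood Rgs18 at 1 and 2.18 FPKM and Mastl at 1.5 and 1 FPKM, and just below it BC048403 at 2 and 0.99 FPKM and Paqr4 at 1.97 and 0.99 FPKM.

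Some low values are uncertain. Genes that every cell uses, such as those of ribosomal proteins Rpl3 at 0.39 and 0.66 FPKM, Rpl5 at 1.79 and 2.3 FPKM and Rps6 at 4.12 and 3.32 FPKM, were far below the ribosomal protein median of 779 FPKM. Gapdh, a glycolytic enzyme gene with many processed copies in the genome, was at 53.3 and 53.2 FPKM, and 82.5% of the 50-base windows of its transcript also occurred in 218 other genes. For Rpl3, Rps6 and Rpl5 the share of such windows was 85.6%, 84.6% and 48.5%. Over 84 ribosomal protein genes, the 42 with over 50% of windows shared had a median of 949 FPKM. The other 42 had a median of 743 FPKM. These medians do not describe the lowest genes. A low value or a 0 can be a failed estimate, and what made these values low was not tested. In the other direction, the values of 3888 expressed genes include transcripts that were assembled from reads, which in the table are part of genes such as Alas2, Csf2rb, Srebf1 and Scd2. The labels do not say whether the libraries kept strand, which makes genes that overlap a neighbour uncertain too. Shared windows also make some values given below uncertain. They were 90.3% for Abcb6, 86.4% for Fdps, 73.9% for Impdh2, 63.1% for Phgdh and 61.7% for Gpx4.

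Protein-coding genes made up most of the expressed set. Of 15046 protein-coding genes measured, 9601 were expressed (63.8%), against 205 of 953 long non-coding RNA genes (21.5%). The median expressed gene stood at 11.8 FPKM. A mean between 1 and 10 FPKM was found for 4566 genes, between 10 and 100 for 5083, between 100 and 1000 for 565, and above 1000 for 67.

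**Figure D1:**
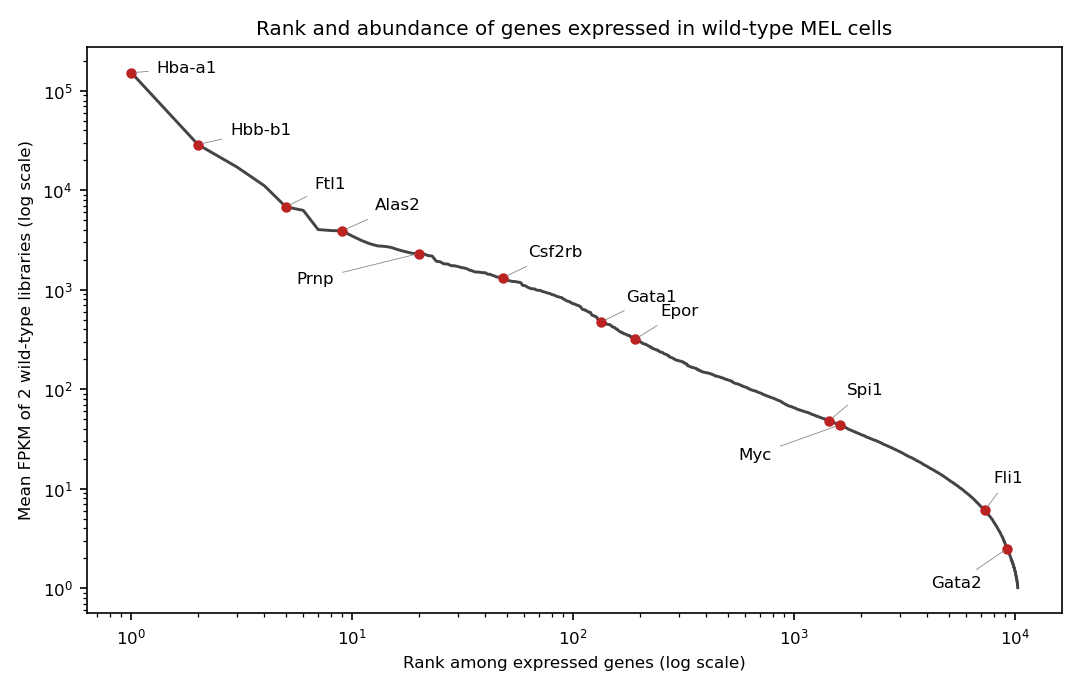
Mean FPKM of the 2 wild-type libraries (vertical axis, log scale) against the rank of each of the 10281 expressed genes (horizontal axis, log scale), with named genes as red points. The curve drops from 152172 FPKM for Hba-a1 to 1 FPKM at its end, with Gata1 at rank 134 and Spi1 at rank 1438.

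The RNA was concentrated in few genes. Hba-a1 alone held 21.8% of the summed FPKM in library 1 and 25.1% in library 2. The 10 most abundant genes held 34.5% and 38.8% (36.7% ± 3.06, SD, n = 2), and 60 genes held 50%. FPKM is a value per length of transcript, so short transcripts weigh more in such sums than in the mass of RNA. Where each value was multiplied by transcript length, the 10 leading genes held 16.9%, over genes with a known length. That leaves out Hbb-b1, Hbb-b2 and the assembled locus of rank 6, so the lower share is not from weighting alone. Among the 30 leading genes by mean, 28 were among the 30 leading genes of each library.

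Globin genes made up the largest named class, with 28.5% of the summed FPKM in library 1 and 32.9% in library 2 (30.7% ± 3.13, SD, n = 2). Weighted by transcript length the share was 10.4%, over the 9 of 11 globin genes with a known length. Ribosomal protein genes followed with 11.9% and 12.8%. Of 85 such genes 82 were expressed, with 30 above 1000 FPKM and 13 under 50. Genes of the respiratory chain and ATP synthase held 2.07% and 1.88%, translation factors 1.74% and 1.71%, and the 2 ferritin genes 1.72% and 1.31%. Loci built only from assembled transcripts held 5.48% and 5.93%. They have no gene name in the table, and 390 of 1041 were expressed.

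**Figure D2:**
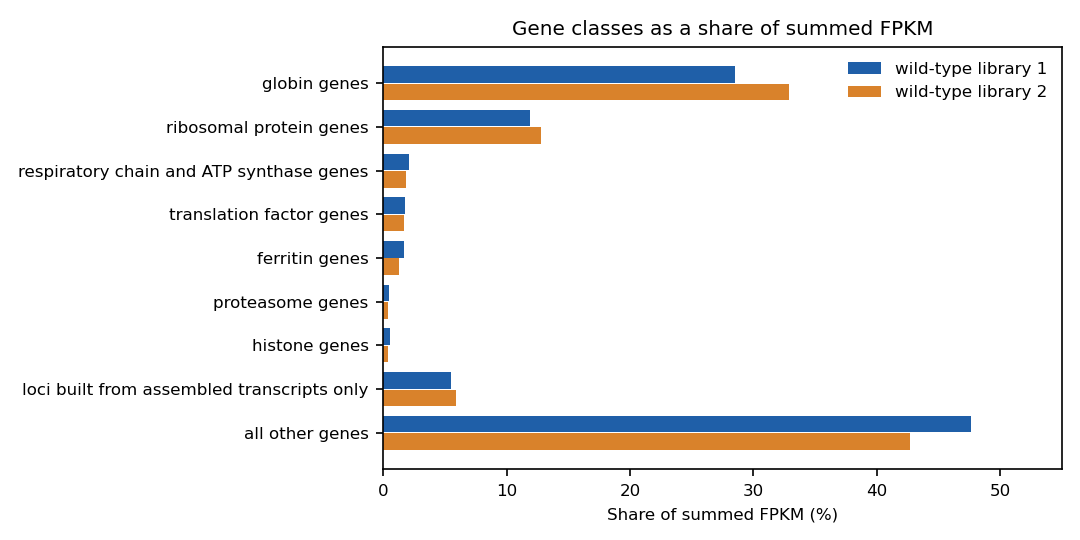
Share of the summed FPKM (horizontal axis, percent, starting at 0) held by each class of genes, with 1 bar per wild-type library. Globin genes hold 28.5% and 32.9% and ribosomal protein genes 11.9% and 12.8%, while all genes outside the named classes hold 47.6% and 42.7%.

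The 30 leading genes also held 12 ribosomal protein genes and 5 assembled loci. Rpl28, a protein of the large ribosomal subunit, led the ribosomal genes at 3543 and 4346 FPKM. Eef1a1, which brings aminoacyl-tRNA to the ribosome, stood at 3988 and 4087 FPKM. Beyond translation, the list held Aldoa, the glycolytic aldolase, at 2956 and 3984 FPKM, and Prnp, which encodes the cellular prion protein at the cell surface, at 2599 and 2032 FPKM. Tpt1, a tumour-associated translationally controlled protein, was at 1765 and 1881 FPKM and Mif, a cytokine, at 1628 and 1875 FPKM. Rsrc1, a splicing-related gene, ranked 4 at 11069.9 and 11168 FPKM, and Tmem131 ranked 29 at 1737 and 1755 FPKM. The values of Rsrc1 and Tmem131 include assembled transcripts and may not be those of the named gene.

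The promoters of a few erythroid genes are printed because they carry the letters that GATA factors are known to bind, and Gata1 is itself among the abundant factors here. The windows are the 250 bases before the annotated start, from RefSeq on GRCm38.p6, written 5′ to 3′ on the strand of the gene. Capitals mark AGATAA or TGATAA on either strand, which reads TTATCT or TTATCA on the other.
Hba-a1 (chr11:32283422-32283671, plus strand): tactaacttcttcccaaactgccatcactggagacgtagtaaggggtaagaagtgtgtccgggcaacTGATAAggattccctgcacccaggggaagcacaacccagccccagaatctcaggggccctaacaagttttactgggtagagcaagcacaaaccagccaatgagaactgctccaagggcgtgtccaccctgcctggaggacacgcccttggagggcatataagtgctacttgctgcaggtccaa
Alas2 (chrX:150547167-150547416, plus strand): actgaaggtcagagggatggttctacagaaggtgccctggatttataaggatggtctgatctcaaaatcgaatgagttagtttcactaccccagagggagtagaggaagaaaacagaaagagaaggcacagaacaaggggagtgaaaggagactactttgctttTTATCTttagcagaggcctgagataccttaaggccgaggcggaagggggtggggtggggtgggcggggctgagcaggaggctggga
Epor (chr9:21963577-21963826, minus strand): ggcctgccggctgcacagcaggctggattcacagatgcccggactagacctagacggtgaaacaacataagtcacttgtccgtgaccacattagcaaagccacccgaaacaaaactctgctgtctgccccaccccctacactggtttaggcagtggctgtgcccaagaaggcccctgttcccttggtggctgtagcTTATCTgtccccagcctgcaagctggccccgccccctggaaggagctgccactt

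In these windows the first base of the match lay at -183 from the start of Hba-a1, -86 from that of Alas2 and -54 from that of Epor. The window of Gata1 held no match. Over 300 bases (250 before to 50 after the start), 23 of the 63 erythroid genes with a RefSeq promoter held AGATAA or TGATAA (36.5%). The 63 are those of 80 genes of the globin, heme synthesis, membrane and erythroid factor lists that matched. The share was 21.0% over all 27025 genes with a promoter and 11.6% over the 8051 expressed ones. By list, the match was found in 5 of 8 globin promoters, 3 of 14 for heme synthesis, 8 of 21 for membrane genes and 7 of 20 for erythroid factors. It was found in 2 of 22 promoters of replication genes and 6 of 23 of glycolysis genes. The globin chaperone gene Ahsp and the beta globin genes Hbb-b1 and Hbb-b2 had no promoter to search. Hba-a1 and its second adult copy Hba-a2 both count among the 5 and the 23. Their windows were identical over 297 bases, so their matches are not independent. With AGATAA alone the erythroid count was 13 (20.6%, against 12.7% of all promoters), and with the shorter GATA it was 45 (71.4%, against 61.5%). A match describes the letters in the window and not a bound site.

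The adult globin genes Hba-a1, Hbb-b1 and Hbb-b2 were far above the embryonic ones. Besides Hba-a1 and Hbb-b1, the adult beta gene Hbb-b2 stood at 14891 and 19504.5 FPKM, and Ahsp, the chaperone that holds free alpha globin, at 1778 and 1196 FPKM. The theta globin gene Hbq1b was at 244 and 349 FPKM and its copy Hbq1a at 15.2 and 18.4 FPKM. Embryonic zeta globin, Hba-x, was at 112 and 159 FPKM. The embryonic beta-like genes were low, with Hbb-y at 6.92 and 8.02 FPKM and Hbb-bh1 at 1.03 and 0.5 FPKM. Of the other allelic forms of the adult beta genes, Hbb-bs was at 46.6 and 71.5 FPKM and Hbb-bt at 0 and 0.19 FPKM. Both of these forms were below Hba-x. In all, 10 of the 12 genes of the globin and chaperone list were expressed, and 9 of those 10 were higher in library 2.

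The alpha globin copies could not be separated well. Hba-a2, the second adult alpha copy, was at 207 and 302 FPKM, which is 0.152% and 0.179% of the alpha globin pair. Of the 50-base windows of the Hba-a1 transcript 67.5% also occurred in another gene, and 86.9% of those of Hba-a2. Their 300-base promoter windows were identical over a run of 297 bases. The split between the alpha copies is therefore uncertain. Of the adult beta globin mean Hbb-b1 held 62.6% and Hbb-b2 37.3%, and sharing between their transcripts was not measured.

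All 17 genes of heme synthesis and its transporters were expressed, against 59.1% of all genes in the table. The same 59.1% is the share to set beside the counts of the lists below. The median was 209.9 FPKM over the measured members of the list, as given for each list below. After Alas2, Alad, the next enzyme of the pathway, was at 352 and 325 FPKM and Urod at 147 and 147 FPKM. Uros, which closes the porphyrin ring, was lower, at 16.2 and 12.2 FPKM. The mitochondrial steps followed with Cpox at 311 and 268 FPKM, Ppox at 212 and 210.3 FPKM and Fech, which inserts the iron, at 289.6 and 324 FPKM. Alad, Urod, Cpox, Ppox and Fech were thus between 146.6 and 352 FPKM in both libraries. Alas1, the form found in most tissues, was at 10.6 and 11.7 FPKM, so that Alas2 held 99.7% of the pair.

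Carriers of the heme pathway spread more widely. Tmem14c, which moves a porphyrin precursor into mitochondria, was at 306 and 270.5 FPKM and Abcb10, a mitochondrial inner membrane transporter, at 261 and 245 FPKM. Slc25a39 was at 219.9 and 199.9 FPKM, Fam210b at 126 and 146 FPKM and Abcb6 at 91.1 and 102 FPKM. Slc25a38, which brings glycine to the Alas2 step, was lower at 24.7 and 18.2 FPKM. The chaperone Clpx, which activates Alas2, was lower still, at 13.3 and 13.1 FPKM. All 5 measured genes of heme breakdown and export were expressed, led by the biliverdin reductase Blvrb at 335 and 321 FPKM. Heme oxygenases were low beside it, with Hmox1 at 11.6 and 10.7 FPKM and Hmox2 at 24.0 and 22.8 FPKM.

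Of 21 genes of iron handling 19 were expressed. Storage came first: Ftl1, the ferritin light chain, was at 7788 and 5879 FPKM, and Fth1, the heavy chain, at 2879.7 and 2935 FPKM. Ftl1 was lower in library 2, and 78.9% of the windows of its transcript occurred in 15 other genes, so its value is uncertain. Uptake ran through Tfrc, the transferrin receptor, at 531 and 397 FPKM. Tfr2, its relative with a role in iron sensing, was at 16.7 and 16.8 FPKM, which left Tfrc 96.5% of the pair. The endosomal steps were lower, with the iron reductase Steap3 at 29.8 and 21.8 FPKM and the iron channel Slc11a2 at 33.1 and 28.8 FPKM.

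Among the 19 expressed iron genes, only Slc25a37 differed 1.5-fold or more in RNA level between the libraries. This erythroid importer of iron into mitochondria (mitoferrin 1) was at 234 and 102 FPKM, with assembled transcripts in its value. Its relative Slc25a28 was higher in library 2, at 26.8 and 34.98 FPKM. Their joint value was taken up by Slc25a37 to 89.7% in library 1 and 74.5% in library 2. Glrx5, needed for iron-sulfur clusters, was at 493 and 487 FPKM, and the iron chaperones Pcbp2 and Pcbp1 were at 414 and 434 FPKM and 197 and 167 FPKM. Slc40a1, the iron exporter ferroportin, was at 10.1 and 9.8 FPKM. The 2 genes not expressed were Hfe at 0 and 0.03 FPKM and Trf, the plasma protein transferrin, at 0 and 0.02 FPKM.

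**Figure D3:**
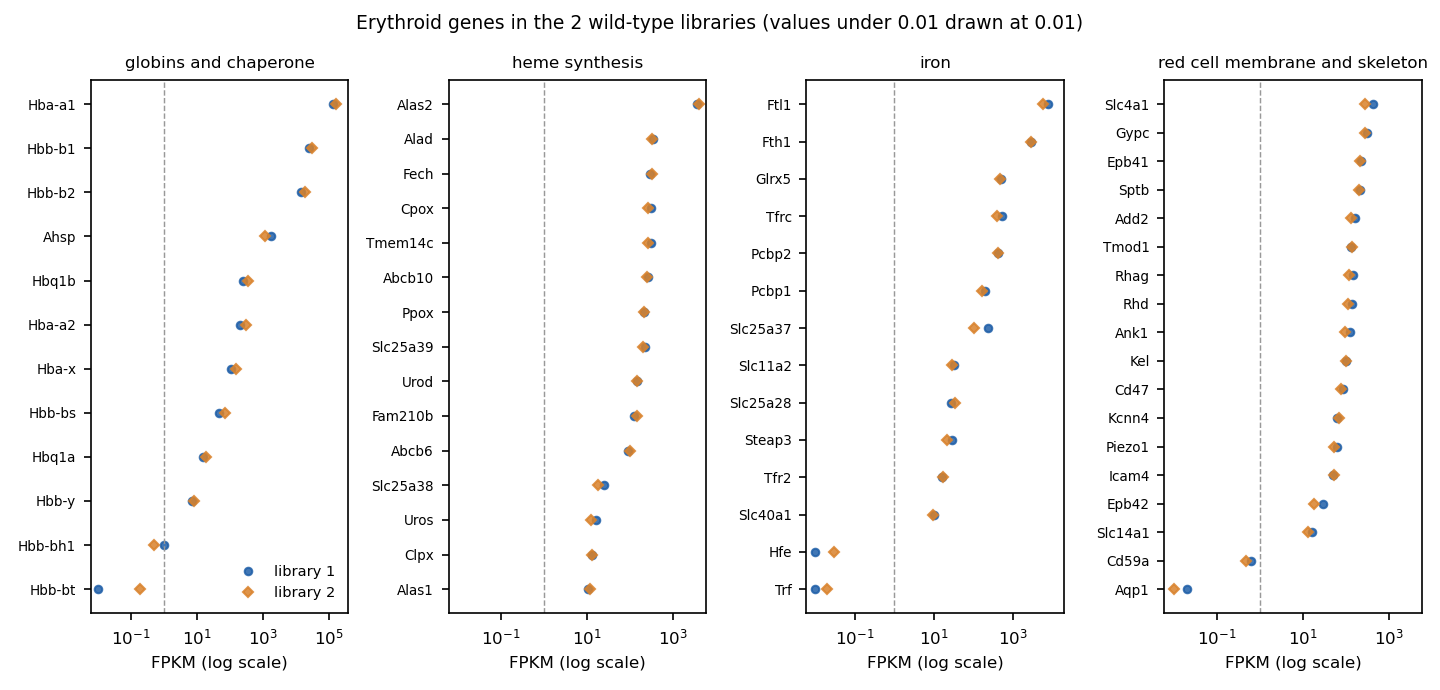
FPKM (horizontal axis, log scale, dashed line at 1 FPKM) of the genes named in the text from the globin, heme synthesis, iron, and red cell membrane lists, with a blue circle for wild-type library 1 and an orange diamond for library 2. The heme genes drawn lie above 10 FPKM, while Hbb-bh1, Hbb-bt, Hfe, Trf, Cd59a and Aqp1 lie below 1 FPKM in at least 1 library.

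The red cell membrane and its skeleton were expressed almost as a whole, 27 of 29 genes with a median of 82.3 FPKM. Among the major surface proteins, the anion exchanger band 3 (Slc4a1) was at 436 and 285 FPKM and glycophorin C (Gypc) at 317 and 289 FPKM. Slc4a1 was lower in library 2. Blood group proteins followed, with Rhag at 149.97 and 119 FPKM, Rhd at 137 and 112 FPKM, Kel at 103 and 101 FPKM and Icam4 at 51.4 and 54.0 FPKM.

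Skeleton genes were within about the same range. Beta spectrin, Sptb, was at 214 and 202 FPKM. Protein 4.1, Epb41, which joins spectrin to actin, stood at 224 and 220.0 FPKM, and ankyrin, Ank1, which ties spectrin to band 3, at 129 and 96.9 FPKM. The actin-capping genes Add2 and Tmod1 were at 162 and 134 FPKM and 132 and 140.0 FPKM. Protein 4.2, Epb42, was lower at 29.9 and 18.4 FPKM, and the urea transporter Slc14a1 was at 16.7 and 13.3 FPKM. The channels Piezo1 and Kcnn4, which govern red cell volume, were at 62.9 and 54.8 FPKM and 63.9 and 69.5 FPKM. Not expressed were the complement inhibitor Cd59a at 0.62 and 0.47 FPKM and the water channel Aqp1 at 0.02 and 0 FPKM.

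All 22 transcription factors of the erythroid list were expressed, with a median of 42.7 FPKM. The factors that act with Gata1 were the most abundant: its cofactor Zfpm1 (FOG-1) at 335 and 359.5 FPKM, the beta globin activator Klf1 at 299 and 272 FPKM and Gfi1b, a repressor, at 191 and 241 FPKM. Nfe2, which activates globin genes, was at 175 and 218 FPKM, and Foxo3 at 191 and 185 FPKM. Genes of the complex that Gata1 shares with Tal1 had unequal RNA levels. Tal1 was at 197 and 187 FPKM, Ldb1 at 145 and 145 FPKM and Tcf3 at 54.4 and 52.3 FPKM, while the bridging protein Lmo2 was at 13.0 and 15.0 FPKM. Lowest in both libraries was Sox6, a repressor of embryonic globin genes, at 7.29 and 4.57 FPKM. Bcl11a, known for the same role, was at 10.4 and 6.62 FPKM, and Ikzf1 at 14.5 and 8.96 FPKM. Gata1 held 99.5% of the summed level of Gata1 and Gata2.

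Progenitor and leukemia genes were mixed. Of 24 measured genes 14 were expressed (58.3%, close to the 59.1% of the whole table), with a median of 3.38 FPKM. Highest was Trp53, the tumour suppressor p53 gene that is often altered in Friend virus leukemias, at 224 and 226 FPKM, with assembled transcripts in its value. The level of RNA does not show whether a normal protein is made. Spi1 came next in the list. The growth regulator Myc was at 56.1 and 31.5 FPKM, lower in library 2. The Polycomb gene Bmi1 was at 27.1 and 21.7 FPKM, Runx1, a factor of blood stem cells, at 17.7 and 14.6 FPKM and the survival gene Bcl2 at 25.7 and 25.2 FPKM.

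Several stem and progenitor genes were below 10 FPKM, and some of them were near or below the threshold. Fli1, the ets factor gene that insertion of Friend murine leukemia virus activates, was at 6.28 and 5.87 FPKM, and Cebpa, a myeloid factor, at 6.67 and 9.97 FPKM. Gata2, which precedes Gata1 in red cell development, was at 2.49 and 2.53 FPKM and Meis1 at 1.45 and 1.97 FPKM. Myb, which keeps precursors dividing, lay on both sides of the threshold at 1.04 and 0.92 FPKM. Cd34, a stem cell antigen, was at 0 and 0.04 FPKM. The stem cell factor receptor Kit, as well as Flt3, Erg and Hhex, was listed at 0 in both libraries. No 50-base window of the Kit or Myb transcript occurred in another gene. Mycn, Hoxa9 and Mecom were not analysed here.

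**Figure D4:**
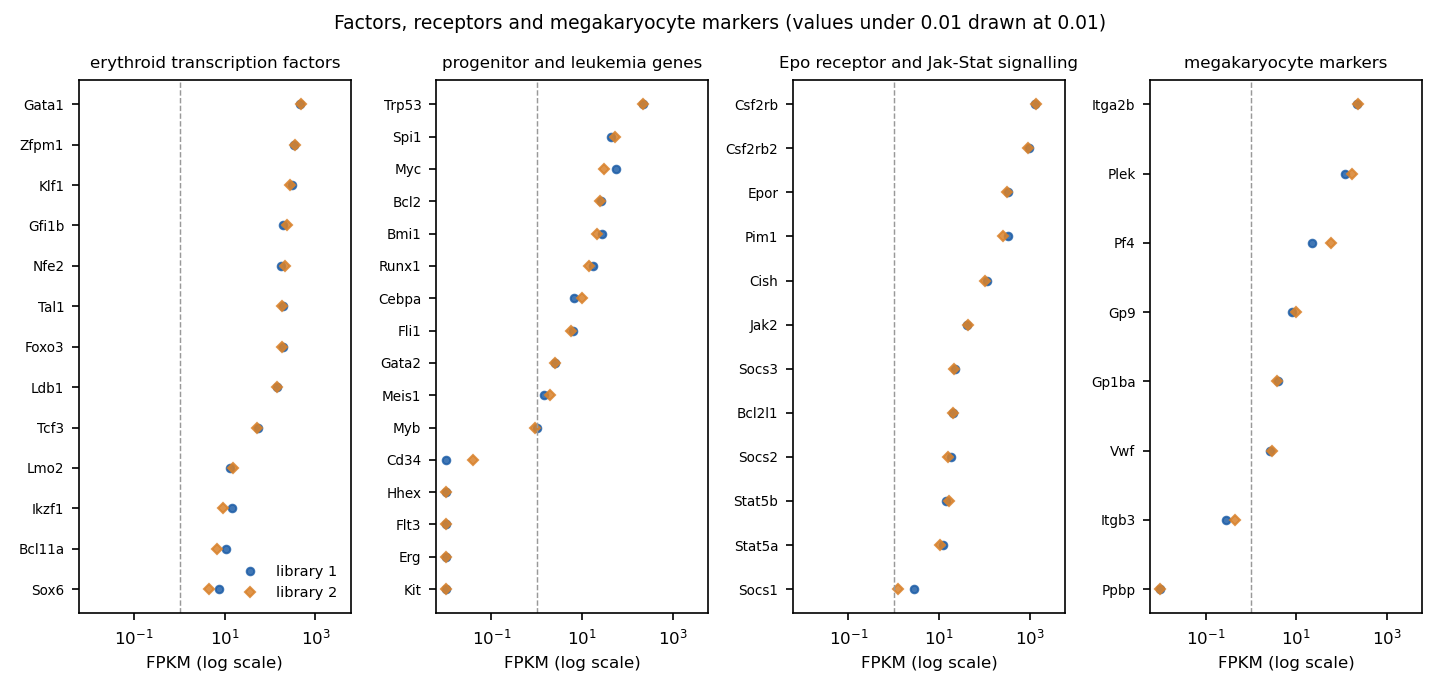
FPKM (horizontal axis, log scale, dashed line at 1 FPKM) of the genes named in the text among erythroid transcription factors, progenitor and leukemia genes, genes of Epo receptor and Jak-Stat signalling, and megakaryocyte markers, with a blue circle for wild-type library 1 and an orange diamond for library 2. Values under 0.01 are drawn at 0.01, where Kit, Flt3, Erg, Hhex and Ppbp lie for both libraries.

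All 21 genes of erythropoietin and Jak-Stat signalling were expressed. Epor, the erythropoietin receptor, was at 327 and 313 FPKM. Csf2rb, the beta chain shared by the receptors for interleukin 3, interleukin 5 and GM-CSF, was higher, at 1292 and 1356 FPKM, and its relative Csf2rb2, specific to interleukin 3, was at 946 and 897 FPKM. Part of each of these transcripts, 18.96% and 19.4% of the windows, occurred in other genes. Il3ra, the alpha chain of the interleukin 3 receptor, was listed at 0 in both libraries. Downstream of Epor, the kinase Jak2 was at 41.7 and 43.7 FPKM, Stat5a at 12.3 and 10.6 FPKM and Stat5b at 13.9 and 16.6 FPKM. Known Stat5 targets spread widely. Pim1, a survival kinase, was at 329 and 254 FPKM and the feedback inhibitor Cish at 117 and 102 FPKM. Of the inhibitors of the Socs family, Socs3 was at 22.1 and 21.2 FPKM, Socs2 at 17.9 and 15.8 FPKM and Socs1 at 2.76 and 1.24 FPKM. The survival gene Bcl2l1, also a Stat5 target, was at 20.4 and 20.4 FPKM.

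Genes of late erythroblasts were expressed in 22 of 23 measured cases, with a median of 29.1 FPKM. Most abundant was Prdx2, the main red cell peroxiredoxin, at 1359.7 and 1241 FPKM. Car2, a carbonic anhydrase, was at 475 and 261 FPKM and lower in library 2, and Car1 was at 3.88 and 6.57 FPKM. The tetraspanin Tspan33 stood at 313 and 329.8 FPKM, and the mitophagy receptor Bnip3l, which clears mitochondria from reticulocytes, at 109 and 133 FPKM. Of the ubiquitin enzymes, Ube2l6 was at 93.8 and 83.8 FPKM, Ube2o at 22.9 and 31.8 FPKM and Ube2h at 19.9 and 22.3 FPKM. Bpgm, which makes the 2,3-bisphosphoglycerate that lowers oxygen affinity, was at 15.0 and 14.4 FPKM, Trim58 at 7.3 and 7.75 FPKM and the nuclear exporter Xpo7 at 4.09 and 3.54 FPKM. Alox15, the reticulocyte lipoxygenase, was listed at 0 in both libraries.

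Genes of glycolysis stood high. Of 25 measured genes 22 were expressed, with a median of 118 FPKM, and 14 of the 22 were higher in library 2. After Aldoa came Pgk1 at 1115 and 1689 FPKM, Pkm, the pyruvate kinase of growing cells, at 1155 and 1518 FPKM and lactate dehydrogenase Ldha at 815 and 979.9 FPKM. Gpi1 was at 562 and 979 FPKM, Tpi1 at 506 and 676 FPKM, Eno1 at 450.0 and 534 FPKM and Pgam1 at 395 and 445 FPKM. Within most enzyme families 1 gene held nearly the whole level: Aldoa held 99.99% of the aldolase level, Pkm 98.2% of pyruvate kinase, Eno1 92.2% of enolase and Hk1 88.5% of Hk1 and Hk2 together. The values of Eno1 and Pgk1 are uncertain, since 72.2% and 68.0% of the windows of their transcripts occurred in other genes. Pklr, the liver and red cell pyruvate kinase gene, was at 29.6 and 18.4 FPKM. Ldhb and Aldoc were below 1 FPKM in both libraries.

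Phosphofructokinase was more evenly divided, with 64.1% from Pfkl. Glucose entry was also shared, since Slc2a3 was at 119 and 179 FPKM and Slc2a1, the main carrier of many growing cells, at 126 and 109.8 FPKM. Slc2a1 was the higher of the pair in library 1 and Slc2a3 in library 2. Slc16a3, a lactate exporter, was at 335 and 319.6 FPKM and held 93.7% of its level and that of Slc16a1. The pentose phosphate pathway, which supplies NADPH, had 7 of 8 genes expressed, from Rpe at 12.1 and 10.8 FPKM to Taldo1 at 192 and 218 FPKM. G6pdx, its first enzyme, was at 63.4 and 58.4 FPKM. Tktl1 was listed at 0.

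All 27 measured genes of the citric acid cycle and its entry were expressed, at a lower level than glycolysis, with a median of 42.4 FPKM. Malate dehydrogenase Mdh2 was the highest at 183 and 151 FPKM and Suclg2 the lowest at 9.08 and 7.85 FPKM. Pyruvate dehydrogenase kinases, which close the entry to the cycle, were led by Pdk3 at 65.0 and 65.9 FPKM. Ucp2, a mitochondrial carrier, was at 1125 and 930.2 FPKM. Txnip, which restrains glucose uptake, stood at 786 and 880.3 FPKM.

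Lipid synthesis was expressed in all 17 genes of the list. Scd2, a stearoyl-CoA desaturase, was at 997 and 940.1 FPKM and held 87.6% of its level and that of Scd1. Srebf1, the activator of fatty acid synthesis, was at 856 and 857 FPKM, and Srebf2, that of cholesterol synthesis, at 59.5 and 63.4 FPKM. Both Scd2 and Srebf1 carry assembled transcripts in their values. Fasn, the fatty acid synthase, was at 136 and 129.7 FPKM and Fdps, an enzyme of cholesterol synthesis, at 87.7 and 70.5 FPKM.

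Antioxidant enzymes were expressed in 20 of 21 cases, with a median of 70.3 FPKM. Prdx2 held 75.6% of the summed level of the peroxiredoxins Prdx1 to Prdx6. Gpx4, which reduces lipid peroxides, was at 593 and 715 FPKM, Sod1 at 456 and 486 FPKM, Gpx1 at 329 and 339.7 FPKM and catalase (Cat) at 64.6 and 76.0 FPKM. The exception was Slc7a11, the cystine importer, at 0.18 and 0.15 FPKM.

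One-carbon and nucleotide synthesis was expressed in all 24 measured genes, with a median of 13.6 FPKM. Paics and Impdh2, enzymes of purine synthesis, were highest at 80.1 and 70.6 FPKM and 73.9 and 56.7 FPKM. The serine synthesis genes Psat1 and Phgdh were at 56.8 and 43.9 FPKM and 36.0 and 27.9 FPKM. Thymidylate synthase, Tyms, was at 13.7 and 7.69 FPKM. In this list 23 of 24 genes were lower in library 2, as were 67.3% of all expressed genes.

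Of surface receptors and adhesion molecules, 36 of 54 measured genes were expressed (66.7%, against 59.1% of all genes), with a median of 5.40 FPKM. Basigin (Bsg), a partner of lactate carriers, was highest at 644 and 744 FPKM, followed by Tfrc. Cd24a, a marker of erythroblasts, was at 405 and 318 FPKM and Cd47, the signal against phagocytosis, at 88.3 and 76.3 FPKM. Among integrins, Itga2b (CD41) was at 215 and 232 FPKM and Itgb1 at 155 and 131 FPKM, while Itga4 was at 5.7 and 3.92 FPKM. Of the tetraspanins, Cd81 was at 59.6 and 72.8 FPKM, Cd82 at 59.98 and 66.9 FPKM and Cd9 at 28.7 and 30.1 FPKM. Class I histocompatibility genes were moderate, with B2m at 110.5 and 89.0 FPKM and H2-K1 at 35.4 and 55.2 FPKM. Cd44, which is lost as erythroblasts mature, was at 2.34 and 2.01 FPKM and the leukocyte antigen Ptprc (CD45) at 0.64 and 0.63 FPKM. The scavenger receptor Cd36 was at 0 and 0.01 FPKM. Genes listed at 0 in both libraries were Kit, Cd69, Cd200, Cd244, Ly6a and Il3ra.

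Of 34 surface transporters 27 were expressed (79.4%, against 59.1% of all genes), with a median of 18.2 FPKM. After Slc4a1 came Slc38a5, an amino acid carrier, at 256 and 286 FPKM and the calcium pump Atp2b4 at 129 and 140.3 FPKM. Slc43a1 and Slc6a9, carriers of large neutral amino acids and of glycine, were at 122 and 102 FPKM and 73.8 and 61.8 FPKM. The leucine carrier pair Slc3a2 and Slc7a5 was at 54.1 and 43.0 FPKM and 35.5 and 25.7 FPKM. Atp1b1, a beta chain of the sodium pump, was at 0.34 and 0.26 FPKM, whereas the other beta chains Atp1b2 and Atp1b3 were at 279 and 261 FPKM and 66.5 and 52.1 FPKM. Slc38a1 was listed at 0 in both libraries, and the drug pump genes Abcb1a and Abcb1b were below 1 FPKM.

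The cells expressed the machinery of division. Of 25 cell cycle genes 24 were expressed, with a median of 46.1 FPKM. Cyclin D3, Ccnd3, was highest at 409 and 427 FPKM and held 84.4% of the D cyclin level. Ccnd2 was at 88.3 and 65.0 FPKM, and Ccnd1 was the gene not expressed, at 0.6 and 0.52 FPKM. The kinase partners of D cyclins were Cdk4 at 159 and 111 FPKM and Cdk6 at 5.64 and 4.65 FPKM. The proliferation marker Mki67 was at 83.0 and 72.6 FPKM, Top2a at 71.5 and 56.0 FPKM and cyclin B1, Ccnb1, at 47.3 and 45.5 FPKM. The inhibitor locus Cdkn2a was at 93.4 and 105 FPKM, Cdkn1b at 30.1 and 28.04 FPKM and Cdkn1a, a p53 target, at 16.3 and 13.0 FPKM.

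DNA replication genes were all expressed, 27 of 27 with a median of 13.6 FPKM. Pcna, the sliding clamp, was at 117 and 72.6 FPKM. Genes of the helicase core were Mcm2 at 41.8 and 22.3 FPKM, Mcm3 at 30.7 and 12.8 FPKM, Mcm6 at 48.4 and 25.9 FPKM and Mcm7 at 42.5 and 23.0 FPKM. The origin gene Orc1 was lowest at 4.38 and 2.14 FPKM. Each of the 27 was lower in library 2, against 67.3% of all expressed genes.

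Among megakaryocyte markers 7 of 13 measured genes were expressed (53.8%, close to the 59.1% of all genes), with a summed level of 375.7 and 481 FPKM, in which Itga2b and Plek had the largest parts. Plek was at 120.3 and 171 FPKM, Pf4 (platelet factor 4) at 22.8 and 58.2 FPKM, Gp9 at 8.05 and 10.1 FPKM, Gp1ba at 3.9 and 3.73 FPKM and Vwf at 2.67 and 2.96 FPKM. The defining marker Ppbp was listed at 0, and Itgb3, the partner chain of Itga2b, was at 0.28 and 0.44 FPKM. At a threshold of 5 FPKM the count was 4.

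Measured markers of the other lineages were mostly not expressed. The lists held 19 myeloid, 10 mast cell, 16 lymphoid, 9 stromal and endothelial and 6 epithelial markers, and some in each had no value. Of 15 myeloid markers 2 were expressed (13.3%), Prtn3 at 2.88 and 3.59 FPKM and Cd68 at 1.74 and 1.11 FPKM, and the list summed to 6.54 and 5.88 FPKM. Mpo was at 0.08 and 0 FPKM, Csf1r at 0.9 and 0.53 FPKM, and Elane and Lyz2 were listed at 0 in both. None of the 5 mast cell, 11 lymphoid, 7 stromal and endothelial or 3 epithelial markers that were measured was expressed. Their summed levels were between 1.41 and 2.01 FPKM for mast cells, between 1.13 and 1.21 for lymphoid cells, between 0.7 and 0.79 for stromal and endothelial cells, and 0 for epithelial cells. Closest to the threshold were the mast and eosinophil gene Prg2 at 0.91 and 1.24 FPKM and the lymphoid kinase Lck at 0.85 and 0.8 FPKM.

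The CTLH ubiquitin ligase is the complex that holds the Wdr26 protein knocked out elsewhere in the study. Of its listed genes 11 of 11 were expressed in the wild-type cells, with a median of 21.7 FPKM. These RNA levels do not show whether the complex was assembled. Wdr26 was at 55.4 and 52.4 FPKM, with assembled transcripts in its value. The catalytic RING pair of the complex, Maea and Rmnd5a, was at 75.2 and 74.8 FPKM and 55.4 and 51.2 FPKM. Among scaffold proteins, Ranbp10 was at 131 and 147 FPKM and Ranbp9 at 18.1 and 17.5 FPKM. The substrate receptor Gid4 was at 12.2 and 11.1 FPKM and Armc8 the lowest at 4.39 and 4.11 FPKM.

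The genes around Hba-a1 were far below it. Within 100 kb of Hba-a1, genes outside the globin family were Snrnp25 at 111 and 120.0 FPKM, Rhbdf1 at 50.1 and 57.2 FPKM, Il9r at 33.0 and 58.4 FPKM, Mpg at 37.7 and 42.8 FPKM, Nprl3, whose introns hold the alpha globin enhancers, at 12.5 and 9.18 FPKM, and Sh3pxd2b at 8.75 and 11.6 FPKM. Around Spi1, Slc39a13, a zinc carrier upstream of it, was at 48.1 and 39.8 FPKM and Mybpc3, a heart muscle gene just downstream of it, at 42.0 and 19.5 FPKM. Psmc3, a proteasome gene, was at 148 and 106 FPKM and Madd at 18.5 and 16.4 FPKM. Acp2 was at 5.4 and 4.69 FPKM, Ddb2 at 6.06 and 4.99 FPKM and Rapsn at 0 and 0.09 FPKM, and Nr1h3 was listed at 0 in both libraries. No gene near Hbb-b1 is given, because the RefSeq coordinates of Hbb-b1 are not on the main assembly of its chromosome.

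The libraries ranked genes alike. Across the 10281 expressed genes, which are not independent replicates, Spearman's rho between the libraries was 0.987, and the difference in log2(FPKM + 1), library 2 minus library 1, had an SD of 0.25 and a median of -0.09. A larger share of genes was lower in library 2, 6916 of 10281 (67.3%). On the same scale 112 genes were at least 1.5-fold higher in library 2 (1.09%) and 271 at least 1.5-fold lower (2.64%). That split depends on scaling: with values centred on the median it was 195 higher and 148 lower, and with globin genes left out and totals rescaled it was 204 higher and 197 lower. With 1 library on each side, no test of any gene is possible. These differences describe this pair of libraries.

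Differences gathered in some groups of genes. The median difference was -0.68 for DNA replication, where 15 of 27 genes were at least 1.5-fold lower in library 2 (55.6%, against 2.64% of all expressed genes), and -0.40 for one-carbon and nucleotide synthesis. Mcm3 and Rrm2, a subunit of ribonucleotide reductase at 27.2 and 11.6 FPKM, were among the 8 genes with the lowest ratio of library 2 to library 1 among those at 10 FPKM or more. In the other direction the median was 0.35 for the globin and chaperone list and 0.26 for glycolysis. All these medians lay on the same side of the overall median of -0.09 as of 0. The erythroid transcription factors, at 0.02, and heme synthesis, at -0.04, lay near 0. Globin and replication genes thus differed in opposite directions between the wild-type libraries, and markers of other lineages summed to similar low levels in both, Itga2b, Plek and Pf4 apart.

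**Figure D5:**
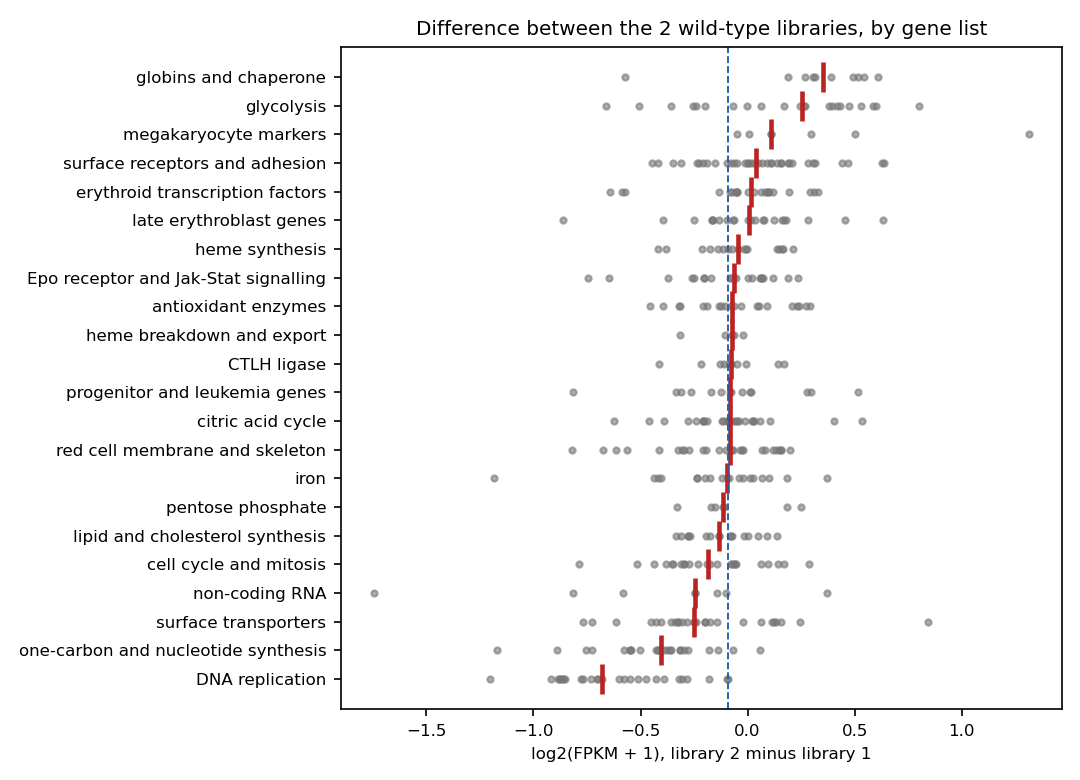
Difference in log2(FPKM + 1), wild-type library 2 minus library 1 (horizontal axis), with 1 grey point per expressed gene of each list, a red bar at the list's median and a dashed line at the median of all expressed genes (-0.09). DNA replication genes all lie to the left of 0, with a median of -0.68, and 9 of 10 globin and chaperone genes lie to the right of 0, with a median of 0.35.

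Single genes with large differences were of many kinds. Neat1, a long non-coding RNA of nuclear paraspeckles, had the lowest ratio, at 264 and 77.9 FPKM, while Malat1, its neighbour in the genome, was at 98.2 and 82.6 FPKM. Slc25a37, Mybpc3, Podxl at 37.7 and 18.0 FPKM, Apol11b at 177 and 86.1 FPKM and Cd209c, a lectin, at 219 and 108 FPKM made up the rest of the 8 lowest. Pf4 had the highest ratio. It was followed by Relb, a subunit of NF-kappaB, at 13.6 and 31.9 FPKM, BC021767 at 56.9 and 130.5 FPKM, Rin3 at 17.6 and 39.5 FPKM and Cgn, a tight junction protein, at 50.3 and 109 FPKM. Fam57b at 12.8 and 27.2 FPKM, Ncf4, a subunit of the phagocyte oxidase, at 13.7 and 28.7 FPKM and the small GTPase Rras at 63.3 and 129.6 FPKM completed the 8 highest. The values of Neat1, Slc25a37, Mybpc3, Apol11b, Pf4, BC021767, Rin3, Cgn, Fam57b and Ncf4 include assembled transcripts.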

How the data were processed

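The authors deposited a table of 1 value per gene and library, whose header names no unit. The deposited values were read as FPKM because, multiplied by transcript length (GENCODE M21, 16050 genes), each library summed to about 1.02e+09. Per the submitters' processing notes, TopHat2 and the mm10 build are listed, with no version or role. Which program gave the FPKM values is stated in none of the sources at hand. Gene IDs were matched to RefSeq GRCm38.p6 (16312 genes), and 24 symbols that had become dates were restored. No count model was used and no test was run, because only 1 group is described. Differences between libraries are on log2(FPKM + 1), the pseudocount being 1, which understates those of low genes. Named genes were the 30 most abundant, the list members, the 8 highest and 8 lowest ratios between libraries, the neighbours of marker genes and the genes at the threshold. The members and the 27 gene lists were chosen with earlier results of these data known, and the CTLH list was added after the values were seen, as were Rpl3, Rpl5, Rps6, Ucp2, Txnip, Atp1b2, Atp1b3 and the genes under other observations. Some list members are counted but not named or drawn, and their values are not reported here. The alternatives were other thresholds, pseudocounts, scalings and motifs, and each library alone. The counting steps were tested on simulated data. Tables were made with Python 3.11.15, pandas 2.3.3, numpy 2.4.6 and scipy 1.17.1, and figures with matplotlib 3.10.9.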

Additional observations from a re-analysis of the deposited data

How the results depend on the processing

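The count of expressed genes kept within 1.5 times its value under every alternative tried. It was 7559 at 5 FPKM and 11014 at 0.5 FPKM, and from 10416 to 10568 with each library alone. Weighted by transcript length, the 10 leading genes held 16.9% and globin genes 10.4%, over genes with a known length. Both weighted shares leave out Hbb-b1 and Hbb-b2, so they combine the weighting with that loss. Without globin genes the 10 leading genes held 10.8%. Unweighted, each library alone gave 34.5% to 38.8% for the 10 leading genes and 28.5% to 32.9% for globin genes. At 5 FPKM 4 megakaryocyte and 0 myeloid markers were expressed, and at 0.5 FPKM 1 mast cell and 1 lymphoid marker. The mast cell count was 0 or 1 with each library alone. Genes differing 1.5-fold between the libraries, 383 in all, numbered 664 with a pseudocount of 0.1 and 208 at 5 FPKM. Erythroid promoters with a match were 13 for AGATAA alone and 45 for GATA. The cause was not tested. Leaving out genes with assembled transcripts, an alternative chosen after the data were seen, kept the direction of all 22 list medians compared. Centring values on the median changed the sign of several list medians near 0. Heme synthesis went from -0.04 to 0.05 and the red cell membrane list from -0.08 to 0.01. The medians of DNA replication, at -0.59, and of the globin and chaperone list, at 0.45, kept their sign. Depth limits genes near 1 FPKM, and a value of 0 can be a failed estimate. No paired analysis was possible because no groups were compared and the results come from no test.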

Other observations

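Homeobox genes of the Hox clusters, which set position along the body axis and act in blood precursors, were mostly not expressed, with 7 of 24 measured genes expressed (29.2%, against 59.1% of all genes). The highest were Hoxc6 at 21.0 and 19.3 FPKM, Hoxc10 at 17.1 and 13.9 FPKM and Hoxb13 at 13.6 and 16.6 FPKM, so the posterior gene Hoxb13 stood level with genes of the C cluster. Hoxc9, Hoxc4, Hoxd8 and Hoxc5 were between 1.2 and 5.03 FPKM. The values of Hoxc6 and Hoxc9 include assembled transcripts.

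Interleukin receptor genes were expressed in 9 of 32 cases (28.1%). Il9r, a neighbour of the alpha globin genes, was the highest at 33.0 and 58.4 FPKM, and Il10ra, a receptor of an inhibitory cytokine, was at 25.2 and 41.0 FPKM. Both were higher in library 2, while Il4ra was at 5.81 and 6.48 FPKM. Y-linked genes were expressed, with Eif2s3y at 78.1 and 83.4 FPKM and Ddx3y at 18.5 and 19.1 FPKM, and Xist, the RNA of the inactive X chromosome, was at 0.02 and 0.02 FPKM. Of 282 genes of solute carriers 162 were expressed (57.4%), close to the share of all genes.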
